A study of Mus musculus with 1470 samples.

Results

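The 9 genes followed here in single cells of mouse liver mark the 2 ends of the liver sinusoid. They are the rows of the deposited expression table whose symbol is Wnt2, Wnt9b, Rspo3, Kit, Thbd or Cdh13, named here as pericentral, and Efnb2, Dll4 or Ltbp4, named here as periportal. All 9 were found among 14915 gene rows, 1 row each, so 6 pericentral and 3 periportal members were described. The cells were non-parenchymal cells of male C57BL/6J mice, 3 fed a normal chow diet (ND) and 3 fed a high-fat diet (HFD) for 9 weeks from 5 weeks of age. All mice were wild type, and the livers were perfused with collagenase before live single cells were sorted into plates and sequenced by Smart-seq2, a full-length protocol that reads 1 cell per well. The table held 718 ND and 752 HFD cells. The labels named the mouse of each cell but no plate or sequencing batch, so a mouse and any batch it shared cannot be told apart, and the cell titles of HFD2 followed another naming scheme than those of the other mice.

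Liver sinusoids are fenestrated capillaries that carry blood from the portal tract to the central vein, and the endothelial cells that line them differ along that path. Endothelial cells near the central vein release Wnt ligands and the Wnt enhancer R-spondin 3, which keep the neighbouring hepatocytes in their pericentral metabolic programme. Towards the portal end, endothelial cells carry more of the ligands of the Notch and ephrin systems, which are also associated with arterial identity. Sorting removes the cells from the tissue, so position was not measured here, and the words pericentral and periportal stand for the side under which each gene was listed.

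By role, the members were 2 Wnt ligands (Wnt2 and Wnt9b), the R-spondin Rspo3, the stem cell factor receptor Kit, thrombomodulin (Thbd, which turns thrombin into an activator of protein C), the atypical cadherin Cdh13, which also binds adiponectin, the transmembrane ligand ephrin-B2 (Efnb2), the Notch ligand Dll4, and Ltbp4, an extracellular protein that binds latent TGF-beta and takes part in elastic fibre assembly. In the RefSeq annotation of GRCm38.p6, the assembly behind the mm10 build that the files used, Wnt2 lies at chr6:17985474-18032772, Wnt9b at chr11:103727362-103775272, Rspo3 at chr10:29453106-29535867, Kit at chr5:75574987-75656722 and Thbd at chr2:148404471-148408188. Cdh13 lies at chr8:118140017-119324929, Efnb2 at chr8:8617235-8661242, Dll4 at chr2:119325784-119335666 and Ltbp4 at chr7:27305140-27339720. The members are therefore spread over 7 chromosomes, with Thbd and Dll4 both on chromosome 2 and Cdh13 and Efnb2 both on chromosome 8. Ltbp4, Kit and Wnt2 were the members with the highest levels, and Wnt2 and Dll4 differed in direction within the same cells below, so the upstream sequences of Wnt2, Kit and Dll4 are shown.

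The 250 bases before a RefSeq transcript start, written 5′ to 3′ on the strand of the gene in GRCm38.p6, came from chr6:18030446-18030695 on the minus strand for Wnt2, chr5:75574737-75574986 on the plus strand for Kit and chr2:119325534-119325783 on the plus strand for Dll4. The Wnt2 start lies 2327 bases inside the outer end of the gene span given above, while those of Kit and Dll4 are at that end. Capitals mark matches to 4 short motifs searched on both strands, CTTTGA (TCF/LEF), TGGGAA (RBPJ), GATAA (GATA) and AGGAAG (ETS), whose reverse complements were counted too.
Wnt2: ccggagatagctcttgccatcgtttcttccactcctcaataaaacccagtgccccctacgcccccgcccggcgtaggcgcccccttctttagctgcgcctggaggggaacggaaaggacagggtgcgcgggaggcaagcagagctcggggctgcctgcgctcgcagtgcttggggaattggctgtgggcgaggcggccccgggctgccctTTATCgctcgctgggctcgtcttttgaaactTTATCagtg
Kit: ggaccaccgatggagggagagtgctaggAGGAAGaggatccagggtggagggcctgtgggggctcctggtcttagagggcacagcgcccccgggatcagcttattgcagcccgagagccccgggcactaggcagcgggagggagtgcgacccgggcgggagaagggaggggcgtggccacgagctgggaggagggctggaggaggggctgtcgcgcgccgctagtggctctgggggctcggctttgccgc
Dll4: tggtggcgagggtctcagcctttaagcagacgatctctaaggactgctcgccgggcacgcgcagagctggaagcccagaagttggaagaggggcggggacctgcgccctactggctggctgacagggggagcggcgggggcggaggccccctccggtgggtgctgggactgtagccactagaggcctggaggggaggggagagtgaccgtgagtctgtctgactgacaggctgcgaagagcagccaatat
Wnt2 held 2 GATA matches, both as TTATC, from 40 to 36 and from 9 to 5 bases before the start, and Kit held 1 ETS match near the far end of the window. Neither the Dll4 window nor those of Wnt9b, Efnb2 and Ltbp4 held any of the 4 motifs. Over 32851 mouse promoters of the same length, 22.6% held GATAA, 29.5% AGGAAG, 21.6% TGGGAA and 13.8% CTTTGA, so matches of this kind are frequent and describe the letters alone. The GC content was 63.6% for Wnt2, 70.8% for Kit and 65.6% for Dll4, against a median of 52.4% over all promoters. The table held 9 promoters of 6 members. Thbd, Rspo3 and Cdh13 had no entry.

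Cells were grouped by spectral clustering without the members, and 470 cells in 4 clusters were called endothelial-like. All 17 endothelial markers (among them Pecam1, Cdh5, Kdr and Stab2) were detected in every one of these clusters, with a median marker found at 1 RPKM or more in 97.9% of the cells. Each mouse gave between 49 (HFD3) and 107 (ND1) endothelial-like cells. RPKM scales the reads of a gene by the length of its transcript and by the reads mapped in the cell, so levels can be compared between genes of different length. The median number of exon reads recovered from the low values was between 78097 and 247932 per endothelial-like cell, by mouse, and the median number of genes at 1 RPKM or more between 1775 (HFD2) and 3175 (HFD3). Markers of other cell classes were also read in these cells. The 11 Kupffer cell markers were at 1 RPKM or more in 16.6% to 82.3% of endothelial-like cells, with a mean level of 3.30 on the log2(RPKM + 1) scale against 9.53 in Kupffer-like cells, and the sum of the list ranged from 35.1 to 43.3 in ND mice and from 16.8 to 66 in HFD mice. The 10 hepatocyte markers summed to 38.3 to 51 in ND mice and 17.6 to 63.2 in HFD mice. Only 62 of the 470 cells had fewer than 3 markers of any other class at 10 RPKM or more. The part of reads from other cells in the values below was not tested.

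One read was worth between 1.58 RPKM (Ltbp4) and 3.69 RPKM (Wnt2) in the median endothelial-like cell, so that 1 read reached 1 RPKM there. In HFD1, the mouse with the most reads per endothelial-like cell, 1 read was worth 0.769 RPKM for Ltbp4, 0.772 for Kit, 0.842 for Efnb2 and 0.894 for Wnt9b, so for these members a value of 1 RPKM stood for more reads than in the other mice, where 1 read was worth at least 1.53 RPKM. Reads of the members were also found in immune cells, and for that reason a level was set for each member at the 99th percentile of its RPKM in 722 Kupffer-like, T-cell-like and B-cell-like cells. This level was 3.43 RPKM for Efnb2, 3.56 for Wnt9b, 10.1 for Dll4, 11.2 for Rspo3, 13.7 for Thbd, 22 for Kit, 24.8 for Cdh13, 28.9 for Wnt2 and 74.8 for Ltbp4. It was chosen after these data had been seen, and a cell above it is called positive below. Intervals on shares of cells are exact binomial 95% intervals and cover counting error only.

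The 9 genes spanned a wide range of levels in endothelial-like cells. Ltbp4 was highest, with a mean over the 6 mice of 7.08 ± 0.77 (SD) on the log2(RPKM + 1) scale, followed by Kit at 4.62 ± 1.15, Wnt2 at 4.03 ± 0.79, Cdh13 at 2.68 ± 0.70, Dll4 at 2.17 ± 0.48, Thbd at 1.96 ± 0.59, Rspo3 and Efnb2 both at 0.85 (SD 0.46 and 0.40) and Wnt9b at 0.37 ± 0.34. Of the 8 neighbours in this order, 3 were separated in the same direction in all 6 mice, namely Ltbp4 above Kit, Wnt2 above Cdh13 and Thbd above Rspo3. Kit exceeded Wnt2 in 5 of 6 mice, by 0.59 ± 0.60 (SD). Rspo3 exceeded Efnb2 in 2 of 6 mice, so that pair was not ordered beyond its spread.

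**Figure D1:**
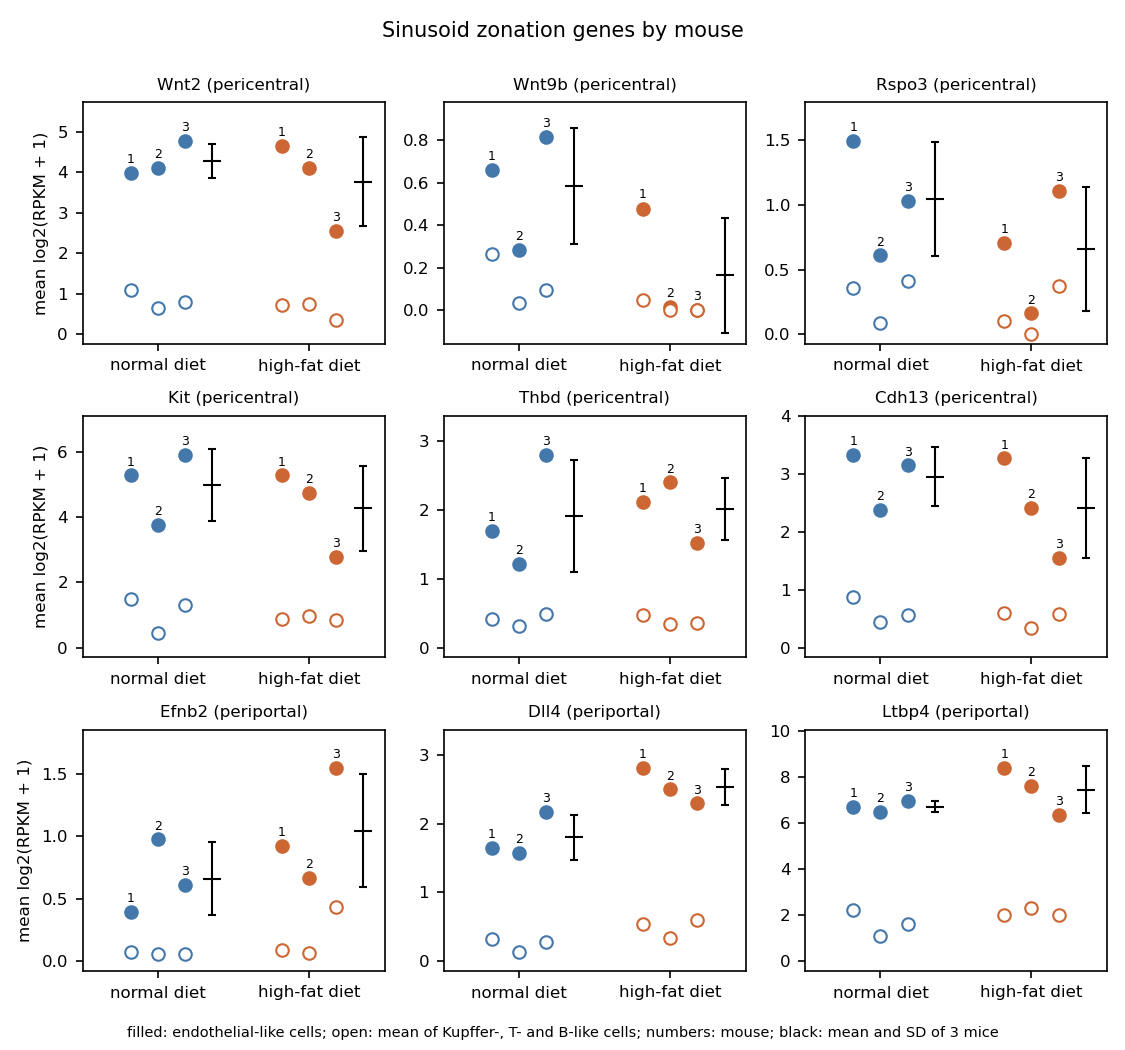
Mean level of each member in the endothelial-like cells of each mouse, as log2(RPKM + 1) on the vertical axis (scales differ between panels), for ND1 to ND3 and HFD1 to HFD3. Filled points are endothelial-like cells, open points the mean of Kupffer-like, T-cell-like and B-cell-like cells, and black marks the mean and SD of 3 mice. Dll4 is the member whose ND and HFD points do not overlap, and HFD3 is the lowest mouse for Wnt2, Kit and Cdh13.

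The Wnt ligands and Rspo3 were held by very different shares of cells. Wnt2 averaged 3.99, 4.11 and 4.77 in ND1 to ND3 and 4.65, 4.11 and 2.55 in HFD1 to HFD3 on the log2 scale, and 43% of the 470 endothelial-like cells were positive (interval 38.5% to 47.6%). Wnt9b averaged 0.66, 0.28 and 0.81 in the ND mice, 0.48 and 0.01 in HFD1 and HFD2 and 0 in HFD3, where no read was found in 49 cells, with 27 positive cells in all (5.74%). Positive cells held it at a median of 48.4 to 191 RPKM in the 4 mice that had any, so its low mean came from few cells. Rspo3 averaged 1.49, 0.61 and 1.03 in the ND mice and 0.71, 0.16 and 1.11 in the HFD mice, with 44 positive cells (9.36%, interval 6.88% to 12.4%). HFD2, the mouse with the fewest genes per cell, was lowest for Rspo3, with 1.98% of its cells positive.

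Kit, Thbd and Cdh13, the 3 other pericentral members, were more widespread. Kit averaged 5.27, 3.76 and 5.91 in ND1 to ND3 and 5.27, 4.74 and 2.78 in HFD1 to HFD3, and 51.5% of endothelial-like cells were positive. Thbd averaged 1.70, 1.22 and 2.80 in the ND mice and 2.12, 2.4 and 1.52 in the HFD mice, with 23.2% of cells positive. Cdh13 averaged 3.33, 2.38 and 3.15 in the ND mice and 3.27, 2.42 and 1.55 in the HFD mice, with 28.5% positive. HFD3 was the lowest mouse for both Kit and Cdh13, and ND2 was the lowest for Thbd.

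Among the periportal members, Ltbp4 was read in nearly every endothelial-like cell. It averaged 6.71, 6.48 and 6.96 in ND1 to ND3 and 8.39, 7.60 and 6.37 in HFD1 to HFD3, with 95.5% of cells at 1 RPKM or more and 68.5% positive (interval 64.1% to 72.7%). Dll4 averaged 1.65, 1.57 and 2.18 in the ND mice and 2.81, 2.50 and 2.30 in the HFD mice, with 26.4% of cells positive. Efnb2 averaged 0.40, 0.98 and 0.61 in the ND mice and 0.92, 0.67 and 1.55 in the HFD mice, with 14.9% positive. HFD3, the lowest mouse for Wnt2, Kit and Cdh13, was the highest for Efnb2 and also the lowest for Ltbp4.

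All 9 members were higher on average in endothelial-like cells than in the mean of Kupffer-like, T-cell-like and B-cell-like cells of the same mouse, and 8 of them passed the test. By limma across all genes with Benjamini-Hochberg adjustment, 21% of 10467 genes were higher in endothelial-like cells at an adjusted p under 0.05, and 17.5% were lower. A gene entered at 1 RPKM or more in at least 5% of either the endothelial-like or the other cells pooled. Efnb2 (17.2% of endothelial-like cells) and Wnt9b (7.02%) entered through the endothelial-like cells alone, so a higher value was favoured for them in advance. The difference on the log2 scale was 5.21 ± 0.24 (SE, n = 6 mice) for Ltbp4, 3.63 ± 0.30 for Kit, 3.30 ± 0.22 for Wnt2, 2.11 ± 0.21 for Cdh13, 1.80 ± 0.14 for Dll4, 1.56 ± 0.19 for Thbd, 0.72 ± 0.11 for Efnb2 and 0.63 ± 0.12 for Rspo3. Their limma adjusted p ran from 1.87e-06 (Ltbp4) to 0.00347 (Rspo3), and each was higher in 6 of 6 mice. Wnt9b differed by 0.30 ± 0.11, was higher in 5 of 6 mice and equal at 0 in HFD3, and missed the threshold (limma adjusted p = 0.0635). With RPKM averaged before the log the differences were larger, from 2.25 for Wnt9b (limma adjusted p = 0.0141), 3.15 for Efnb2, 3.84 for Rspo3 and 3.98 for Thbd to 5.16 for Dll4, 5.58 for Cdh13, 5.74 for Kit, 5.93 for Wnt2 and 6.15 for Ltbp4, and Wnt2 then stood above Kit. The median difference was 1.80 over the 9 members and 0.01 over all genes tested.

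Outside the endothelial-like cells, positive cells of most members were few and spread over several classes, and shares above 5% were found for Thbd and Dll4 alone. In Kupffer-like, T-cell-like and B-cell-like cells together, the level itself set the share at about 1%. Thbd was positive in 8 of 41 cells resembling monocyte-derived macrophages or dendritic cells (19.5%, interval 8.82% to 34.9%) and in 3 of 33 neutrophil-like cells, beside 23.2% of endothelial-like cells. Dll4 was positive in 3 of 21 plasmacytoid dendritic cell-like cells (14.3%, interval 3.05% to 36.3%). Kit was positive in 2 of 41 of the macrophage or dendritic group and in 1 of 21 plasmacytoid dendritic cell-like cells. Wnt2 was positive in 3.02% of Kupffer-like cells and in 0 of 41 of the macrophage or dendritic group, which allows a share of up to 7.32% by a limit of 3 cells in place of an interval. In the 35 hepatocyte-like cells no cell was positive for Wnt2, Wnt9b, Kit, Thbd, Cdh13, Dll4 or Ltbp4, and 1 was positive each for Rspo3 and Efnb2.

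**Figure D2:**
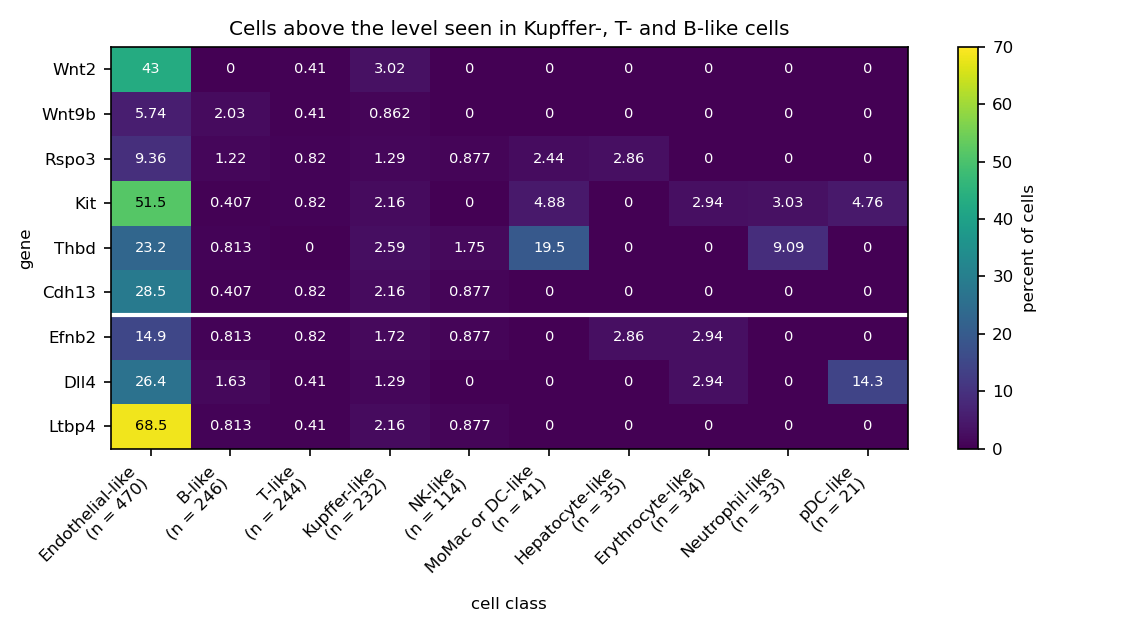
Share of cells above the level of each member, as a colour and a printed percent, with members as rows and cell classes as columns, where the level is the 99th percentile in Kupffer-like, T-cell-like and B-cell-like cells, which sets these 3 classes together at about 1%. Endothelial-like cells stand highest for all 9 members, from 5.74% for Wnt9b to 68.5% for Ltbp4, and Thbd reaches 19.5% in the macrophage or dendritic group.

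How often an endothelial-like cell held genes of both sides depended on the cutoff and on Ltbp4. At 1 RPKM or more, 87.4% ± 9.87 (SD, n = 6 mice) of the cells of a mouse had at least 1 pericentral and at least 1 periportal member, where independence of the sides within each mouse would give 87.3%, but 51.5% ± 14 of Kupffer-like, T-cell-like and B-cell-like cells also did. At 1 RPKM, 90.4% of endothelial-like cells held a pericentral member (100% in ND3) and 96.4% a periportal one. The share could therefore hardly depart from independence at that cutoff, and the match does not show that the sides are independent. At 10 RPKM or more the share was 66.4% ± 12.7 with 66.8% under independence, against 4.75% ± 1.71 in those immune cells, where independence would give 1.46%. With positive cells alone it was 54.9% ± 10.4, by mouse 49.5%, 43.3% and 64.2% in ND1 to ND3 and 70%, 55.4% and 46.9% in HFD1 to HFD3, with 52.9% under independence. In the immune cells it was 0.859% ± 0.919, with 0.204% under independence. A further 14.8% ± 5.56 were positive for pericentral members alone, 20.8% ± 8.17 for periportal members alone and 9.55% ± 4.69 for none. With Ltbp4 left out, so that the periportal side stood for Dll4 or Efnb2, the share with both sides was 43.5% ± 6.01 at 1 RPKM and 23.9% ± 6.82 with positive cells alone, where independence would give 42.4% and 24.8%.

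Cells that held many pericentral members at once were compared with the others, pooled over mice, for the periportal members. Dll4 was positive in 28.8% of the cells with no positive pericentral member, in 27.8% of the 270 cells with 1 to 3 and in 14.8% of the 61 cells with 4 to 6. By exact number, the share of Dll4 was 23.1%, 32.6% and 30.2% for 1, 2 and 3 pericentral members and 17.9% for 4. The cells with 5 and 6 numbered 12 and 10, with 1 cell positive for Dll4 in each. In the cells with none, 1 to 3 and 4 to 6, Efnb2 was positive in 20.9%, 13.3% and 8.20%, and Ltbp4 in 60.4%, 70% and 80.3%. Since the mice differ in levels and give unequal numbers of cells to each set (3 in the lowest mouse for 4 to 6 members), the share that the mice of each set would give on their own is the reference. For 4 to 6 members it was 26.2% for Dll4, 14.3% for Efnb2 and 69.3% for Ltbp4, and for none 25.3%, 15.6% and 67.5%. One cell was positive for all 9 members.

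Across single cells, members of the same side varied together. The correlation of log2(RPKM + 1) was taken within each mouse after the number of genes detected per cell had been removed, and averaged over mice. All cells of a mouse share its preparation, and the values are descriptions. They were not set against the correlations of all gene pairs, so the counts of positive and negative pairs below have no such reference. All 15 pericentral pairs were positive on average (0.17 to 0.38, median 0.23), 11 of them in every mouse with a value. The highest were Rspo3 with Cdh13 at 0.38 (0.24 to 0.55 by mouse), Wnt2 with Kit at 0.37 (0.28 to 0.51) and Kit with Cdh13 at 0.36. The 3 periportal pairs were weaker, with 0.16 for Dll4 with Ltbp4, 0.16 for Efnb2 with Dll4 and 0.10 for Efnb2 with Ltbp4.

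Of the 18 pairs that joined a pericentral with a periportal member, 17 were negative on average, with a median of -0.09, and 8 were negative in every mouse with a value. The lowest were Wnt2 with Efnb2 at -0.18 (-0.33 to 0.02 by mouse) and Cdh13 with Dll4 at -0.18 (-0.28 to -0.08). Thbd with Ltbp4 was the exception at 0.11, positive in 4 of 6 mice. Thbd with Dll4 lay close to 0, at -0.0035 and negative in 4 of 6 mice. When the mean of each endothelial-like cluster within each mouse was removed as well, all 18 same-side pairs stayed positive (medians 0.21 pericentral and 0.13 periportal) and 17 of the 18 opposite pairs stayed negative (median -0.12).

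**Figure D3:**
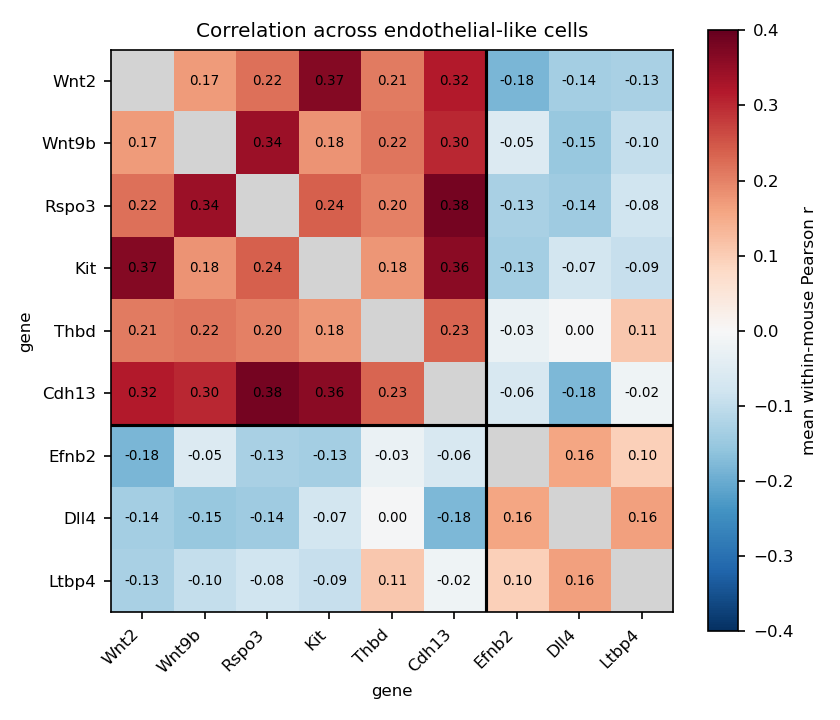
Mean over mice of the within-mouse Pearson correlation between each pair of members across 470 endothelial-like cells, as a colour and a printed value with members as rows and columns, after the number of detected genes was removed. The block of 15 pericentral pairs is positive (0.17 to 0.38), the 3 periportal pairs are weakly positive (0.10 to 0.16), and 17 of the 18 pairs between the sides are negative.

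The same question was put to the mice as replicates, by comparing each member between the endothelial-like cells with and without another member at 1 RPKM or more. For 7 members there were enough cells in 4 or more mice, which was not so for Wnt9b and Ltbp4. In the 29 same-side comparisons the member was higher in the cells that held the other one, by a median of 0.99 on the log2 scale, in 9 of them in every mouse. Within the larger endothelial-like cluster alone, 58.3% of the 12 same-side comparisons that could be made were higher. In the 27 opposite-side comparisons it was lower in 25 (median -0.65), in 9 of them in every mouse, and the 2 exceptions were Efnb2 and Ltbp4 in cells with Thbd. None of these 56 passed limma with adjustment over all genes (0% of 69279 gene tests over the 7 members), the lowest adjusted p being 0.219. At an unadjusted p under 0.05 stood 23 same-side comparisons in the higher direction, 16 opposite-side ones in the lower and 1 in the higher direction, where 3.57% of the gene tests did so as higher and 2.95% as lower. The same direction in every mouse was found in 1.88% of the gene tests as higher and in 2.36% as lower.

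Individual comparisons showed the sizes. In cells with Cdh13, Dll4 was 0.96 ± 0.15 (SE) lower on the log2 scale, and lower in 6 of 6 mice (limma adjusted p = 0.251). In cells with Dll4, Wnt2 was 1.17 ± 0.19 lower, again in 6 of 6 mice (limma adjusted p = 0.253). In cells with Kit, Cdh13 was 1.91 ± 0.25 higher and Wnt2 1.96 ± 0.30 higher, both in 6 of 6 mice (limma adjusted p = 0.219 and 0.236). In cells with Efnb2, Dll4 was 1.17 ± 0.34 higher in 6 of 6 mice, and Wnt2 1.80 ± 0.36 lower in 6 of 6 mice (limma adjusted p = 0.614 and 0.514).

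With the stricter level, 3 same-side comparisons passed. Cells positive for Wnt2 held Kit at 2.35 ± 0.21 higher (limma adjusted p = 0.00644) and Cdh13 at 2.15 ± 0.27 higher (limma adjusted p = 0.0150), where 0.162% of 9897 genes were called higher and 0.0429% were over all 8 members fitted. Cells positive for Cdh13 held Wnt2 at 2.74 ± 0.35 higher (limma adjusted p = 0.0417), where 0.0606% were. All 31 same-side comparisons at this level were higher, 21 in every mouse, and 27 of 33 opposite-side ones were lower, 11 in every mouse, where 3.01% and 2.45% of the gene tests were so in every mouse, with none of the opposite-side ones called (0.0152% of gene tests called lower, lowest limma adjusted p = 0.123).

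Counts of cells positive for both members of a pair, which use no levels beyond that cutoff, went the same way for same-side pairs and were divided for opposite-side pairs. Unlike the correlations, these counts carry no adjustment for the number of genes detected per cell, and the cluster with the most genes per cell had the largest share of positive cells for all 9 members. All 18 same-side pairs were found in more cells than independence within mice gives, by 1.11 to 3.71 times with a median of 1.67. Wnt2 and Kit were found together in 1.37 times as many cells as that, Cdh13 and Rspo3 in 31 where 13.1 would be, and Wnt9b and Rspo3 in 12 where 3.24 would be. Of the opposite-side pairs, 10 of 18 were found in fewer cells than that and 8 in more, over a range of 0.287 to 1.17 times with a median of 0.952. Wnt9b met Dll4 in 2 cells with 6.98 expected, Rspo3 met Dll4 in 5 with 10.9 expected, Rspo3 met Efnb2 in 3 with 6.44 expected and Cdh13 met Dll4 in 24 with 35.7 expected. All 8 pairs above 1 held Ltbp4 or Thbd. Ltbp4 was found at 1.02 to 1.17 times the expected number of cells beside each of the 6 pericentral members, although the adjusted correlation was negative with 5 of them (Wnt2 with Ltbp4 at -0.13, in 6 of 6 mice), and Thbd at 1.09 times beside Efnb2 and 1.17 times beside Dll4. By mouse, Thbd with Efnb2 was above the expected number in 2 mice and below it in 4, and Thbd with Dll4 above it in 5 and below it in 1.

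**Figure D4:**
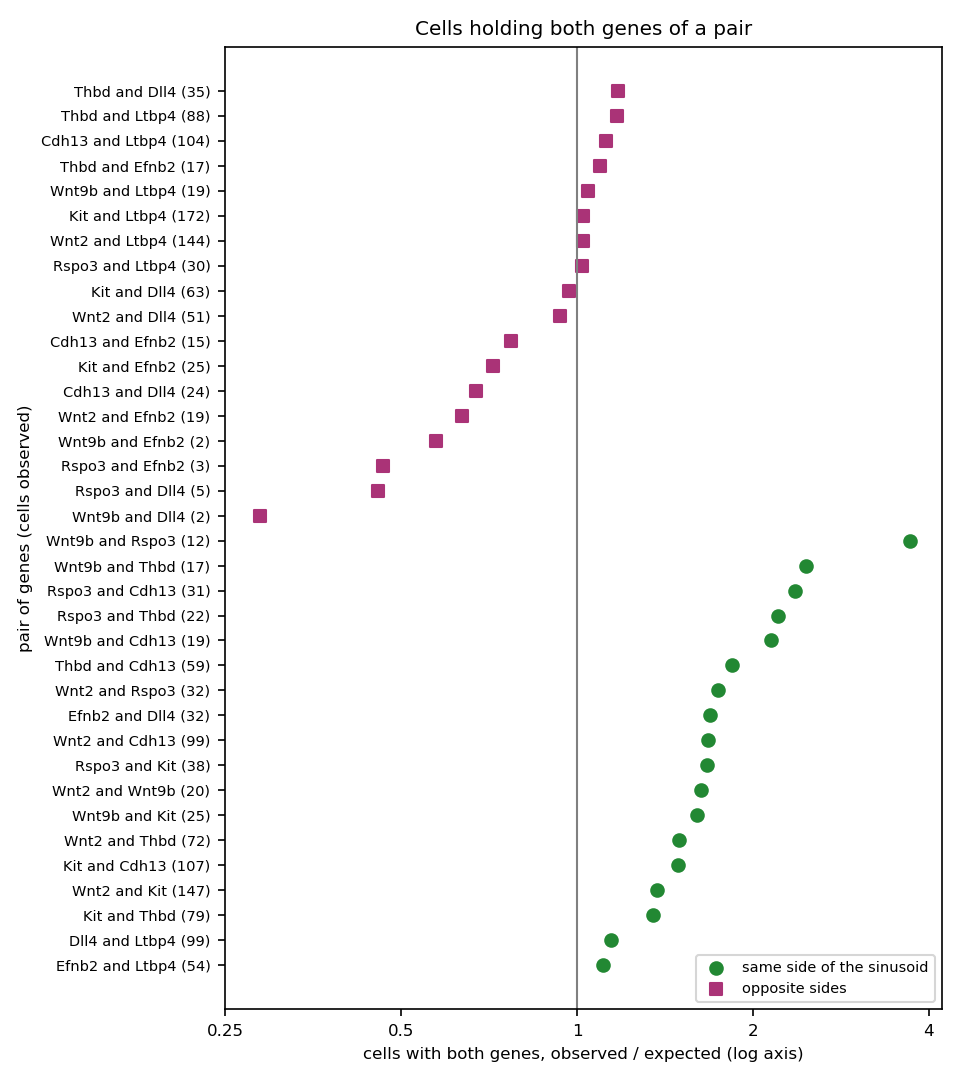
Ratio of observed to expected numbers of endothelial-like cells positive for both members of a pair (log-scaled axis, 1 means independence within mice), for the 18 same-side and 18 opposite-side pairs. All same-side pairs lie above 1, while opposite-side pairs lie on both sides, with the pairs that hold Ltbp4 or Thbd between 1.02 and 1.17.

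The 4 endothelial-like clusters differed in the members although none had been used to form them. The smallest, with 62 cells and the most genes per cell (median 3587), had the largest share of positive cells for all 9 members, with Wnt2 positive in 74.2% of cells, Kit in 82.3%, Rspo3 in 24.2% and Ltbp4 in 90.3%. The largest (median 2491 genes) was lower for Wnt2 (24.5%), Kit (33.7%), Dll4 (14.7%) and Ltbp4 (50.9%). A cluster of 95 cells held 79 cells of HFD2 and had the fewest genes per cell (median 1702), with Wnt2 in 35.8%, Wnt9b in 0 and Ltbp4 in 67.4%. No cluster held positive cells of 1 side alone, and the part of the number of genes detected in these differences was not tested.

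The genes whose values followed each member most closely were found by the same within-mouse correlation over all genes. Wnt2 was followed by Kit, Gas6 (0.34) and Cdh13, and Kit by Ppap2a (0.37), Wnt2 and the prostaglandin synthase Ptgs1 (0.36). Rspo3 was followed by the homeobox gene Lhx6 (0.39), Cdh13 and Rdx (0.29), and Cdh13 by Rspo3, Kit and Wnt2, all members. Wnt9b was followed by Rspo3 (0.34), Cdh13 (0.30) and Trib2 (0.28, over the 5 mice with Wnt9b reads). Thbd was followed by the junction gene Jam2 (0.26), the angiopoietin receptor Tek (0.25) and the connexin Gja4 (0.24).

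The periportal members had other neighbours. Ltbp4 was followed by Ppap2b (0.33), Gpihbp1 (0.32), which anchors lipoprotein lipase to capillaries, and Gpr182 (0.31), all 3 read in at least 97% of endothelial-like cells. Dll4 was followed by Ifi203 (0.25), the nuclear RNA Malat1 (0.22) and the homeobox gene Meis1 (0.22), and Efnb2 by B230118H07Rik (0.30), the prothrombin gene F2 (0.24) and Pus10 (0.23). None of these 9 genes was a member, while 5 of the 6 pericentral members had another pericentral member among their 3 nearest. With 6 pericentral and 3 periportal members, the sides had unequal numbers of possible partners, so this is not a like comparison. By mouse, values below 0 were found for Rspo3 with Lhx6 (-0.0040 to 0.81), Wnt9b with Rspo3 (-0.055 to 0.59) and Trib2 (-0.041 to 0.60), and Dll4 with Meis1 (-0.036 to 0.48).

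Genes of the pathways to which the members belong were read from lists of 85 genes, of which 70 were in the table and 46 passed the filter on low values. Of these 46, 30 were higher in endothelial-like cells than in the immune classes by limma, 3 were lower and 13 were not called, against 21% higher and 17.5% lower over all genes. The filter could be passed in either the endothelial-like or the immune cells, so a gene that passed in 1 of them alone had its direction favoured in advance. At 10 RPKM or more, Ntn4 was found in 0% of the immune cells, and Kitl, Jag1 and Notch4 in 0.139%. On the Wnt side, Wls, which carries Wnt ligands to the cell surface, was 1.55 ± 0.17 (SE) higher on the log2 scale, the receptor Fzd4 1.60 ± 0.14, the co-receptors Lrp5 and Lrp6 2.33 ± 0.18 and 1.55 ± 0.12, and the feedback inhibitor Nkd1 1.09 ± 0.19. Lef1, a nuclear partner of beta-catenin found in lymphocytes, differed by -1.03 ± 0.11. The Wnt target Axin2 did not pass (-0.14 ± 0.08), and the R-spondin receptors Lgr4 and Lgr5 were at 0.02 and 0.04 on the log2 scale in endothelial-like cells. No other Wnt ligand in the list passed the filter.

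On the Notch side, the receptors Notch1 and Notch4 were 3.19 ± 0.16 and 1.62 ± 0.15 higher, the target Hes1 2.32 ± 0.23, and the ligands Dll1 and Jag1 0.59 ± 0.14 and 0.23 ± 0.08, while Notch2 differed by -0.73 ± 0.20 and Rbpj by -0.10 ± 0.09, the last not called. All 4 ephrin and Eph genes tested were higher, led by Ephb4, the receptor of ephrin-B2, at 3.78 ± 0.29. Of the protein C and thrombin system, Tfpi, an inhibitor of tissue factor, was 3.18 ± 0.28 higher and the thrombin receptor F2r 2.17 ± 0.25, while the protein C receptor Procr was not called (0.09 ± 0.09). Kitl, the ligand of Kit, was 0.77 ± 0.10 higher, so receptor and ligand were both read in endothelial-like cells. Of the other genes listed with Kit, Gab1 was 0.84 ± 0.13 higher, Cblb differed by -0.63 ± 0.12 and was called lower, and 3 were not called. All 6 further genes listed for sinusoid zonation were higher under the same filter, from Ntn4 at 0.38 ± 0.10 to Fabp4 at 4.69 ± 0.24.

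High-fat diet changed no member past the threshold in endothelial-like cells, and no gene of the 9898 tested was called (0%, limma with Benjamini-Hochberg adjustment). At an unadjusted p under 0.05 stood 1.89% of genes, among them 1 member, Dll4. Dll4 averaged 1.80 ± 0.33 (SD) in ND and 2.53 ± 0.26 in HFD mice, a difference of 0.73 ± 0.25 (SE, limma p = 0.0219, adjusted p = 0.9998, exact permutation p = 0.1, the smallest that 3 against 3 mice can give). Every HFD mouse was above every ND mouse, as was the case for 1.44% of all genes, and the share of positive cells was 18.7%, 18.3% and 32.1% in the ND mice and 33%, 27.7% and 30.6% in the HFD mice, which overlapped. HFD1, the highest mouse for Dll4, was also the mouse with the most reads per cell. In cells with at least 2000 genes the Dll4 difference was 0.54 (limma p = 0.121, adjusted p = 0.999). Its unadjusted p was above 0.05 also with RPKM averaged before the log (0.317), a mean-variance trend (0.157) or a filter of 20% of cells (0.0864), and without ND1, ND2 or HFD1 (0.0750 to 0.0780). In the remaining settings the unadjusted limma p for Dll4 stayed under 0.05, at 0.00752 to 0.0136 with the other clusterings. No setting called it after adjustment.

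The other 8 members overlapped between the diets. The 5 pericentral members Wnt2, Wnt9b, Rspo3, Kit and Cdh13 were lower on average in HFD mice, with differences of -0.52 ± 0.54 (SE), -0.42 ± 0.24, -0.39 ± 0.33, -0.72 ± 0.77 and -0.54 ± 0.47, and Thbd differed by 0.10 ± 0.44. The periportal members Efnb2 and Ltbp4 differed by 0.38 ± 0.29 and 0.73 ± 0.49. Without HFD3 the differences of Wnt2 and Kit turned to 0.090 and 0.024, so their direction rested on that mouse, and that of Thbd turned to -0.24 without ND2 and -0.090 without HFD2. The others kept their sign but not their size. Cdh13 moved between -0.97 without HFD1 and -0.11 without HFD3, Rspo3 between -0.61 without HFD3 and -0.14 without HFD2 (-0.16 without ND1), Efnb2 between 0.13 without HFD3 and 0.57 without HFD2, and Ltbp4 between 0.27 without HFD1 and 1.27 without HFD3. Wnt9b stayed between -0.58 and -0.31 and Dll4 between 0.60 and 0.92. With RPKM averaged over the cells of a mouse before the log, which gives more weight to the cells with the highest values, the differences were -2.76 for Wnt9b (limma p = 0.0145, adjusted p = 0.999), -1.31 for Rspo3, -0.23 for Wnt2, -0.061 for Kit, 1.03 for Efnb2, 0.47 for Ltbp4 and 0.31 for Thbd, none called. In cells with at least 2000 genes Kit differed by -0.29 and Thbd by 0.47. The median difference was -0.39 over the members and -0.05 over all genes.

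The diet comparison gave no call in other classes either. In Kupffer-like cells 7 members could be tested, in T-cell-like cells 8 and in B-cell-like cells 9, and limma called 0 of them (0% of genes in each class), and 0 members stood at an unadjusted p under 0.05 beside 3.49%, 3.63% and 5.42% of genes. Ltbp4 differed by 0.73 ± 0.39 (SE) in Kupffer-like cells, about as in endothelial-like cells. The difference of the diet effects between endothelial-like and other cells was 0.49 ± 0.24 for Dll4 (limma p = 0.0748, adjusted p = 0.9998, exact permutation p = 0.2) and was called for none of the 9 (0% of 10467 genes; 4.07% at an unadjusted p under 0.05, none of them members). Of the listed pathway genes, 45 were tested for diet and 0 were called. Those at an unadjusted p under 0.05 were the fatty acid transporter Cd36 at 1.74 (limma p = 0.00901) and the scavenger receptor Msr1 at -0.94 (limma p = 0.0160).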

How the data were processed

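Freshly isolated murine non-parenchymal cells were index sorted and sequenced by Smart-seq2. The authors used STAR and the mm10 build, retained reads with 1 mapping position, discarded poor cells and doublets, and deposited RPKM values per gene and cell (rpkmforgenes on RefSeq). RPKM are not counts. Read depth was estimated from the low values, of which 62.6% lay within 0.05 of whole reads, and differed between mice.

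Each column was mapped to its mouse by the labels. The mouse was the replicate (3 ND, 3 HFD). The labels give no plate or batch. Cells were clustered with scikit-learn 1.9.0 (1000 variable genes without members and pathway lists, 20 principal components, 15 nearest neighbours, spectral clustering) and named from fixed markers. Means of log2(RPKM + 1) over the cells of a class in each mouse (at least 5 cells) were tested with limma 3.58.1 without trend in R 4.3.3, with Benjamini-Hochberg adjustment over all genes at 1 RPKM or more in at least 5% of the cells of a class. In the comparison of classes, it was enough that either the endothelial-like or the other cells pooled passed. The fits were tested on simulated data.

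The genes named were the 9 members, listed pathway genes that passed a test or describe a list, and the 3 genes most correlated with each member. The members and lists were chosen with earlier results of these data known. Alternatives comprised pseudocount, scaling, filters, clustering, averaging, variance prior, threshold, replicate block and leaving out each mouse.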

Additional observations from a re-analysis of the deposited data

How the results depend on the processing

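The count of members higher in endothelial-like cells kept to within 1.5 times of 8 under every alternative run, and Wnt9b passed without HFD3 (0.36, limma adjusted p = 0.0409) and with RPKM averaged before the log (2.25, adjusted p = 0.0141). The count of members changed by diet was 0 in every setting. With mouse number as a replicate block it was also 0, in endothelial-like and in other cells, and the block changed no call. The deviations of same-numbered mice correlated at -0.17, 0.17 and -0.14, and those of differently numbered mice at -0.18 to 0.25. With 3 mice per diet, these values cannot tell whether same-numbered mice shared a batch. When 1 mouse was left out, the diet difference ranged from -0.96 to 0.090 for Wnt2 and from -1.33 to 0.024 for Kit, both reversed without HFD3, and from -0.24 to 0.55 for Thbd, reversed without ND2 and without HFD2 (-0.090). The count of member pairs called within endothelial-like cells was 0, but 2 with the filter at 20% of cells (Wnt2 and Cdh13 in cells with Kit), 1 at 10 RPKM (Kit in cells with Wnt2), 3 above the level in other classes, and 0 to 1 when 1 mouse was left out (Cdh13 in cells with Wnt2, without ND3). Within the larger cluster alone, 58.3% of 12 same-side comparisons were higher, where all 29 were before. The cause was not tested. The share of cells with both sides was 87.4%, 66.4% at 10 RPKM, 54.9% above the level in other classes, 43.5% with Ltbp4 left out, 23.9% with both changes, and 85.3% to 90.2% when 1 mouse was left out. Leaving out endothelial-like cells with markers of another class left 62 of 470 cells and 2 mice with enough of them, where the share with both sides was 90.6% (58 cells), and the diet comparison could not be fitted, nor could those of classes and pairs. In all, 81 alternative values of the main counts and shares stayed on their side and 8 moved. The level in other classes, leaving out Ltbp4, clustering centred within mice and removal of cluster means were chosen after the data had been seen. Depth differed between mice, which limits what a cell without a read shows.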
